A study of Mus musculus with 13 samples.

Results

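Fatty acids enter the heart muscle cell from blood lipids and are burned in its mitochondria, and 31 genes of that path were followed through the development of the mouse heart. The genes were given as a list and were matched by symbol, and all 31 were found among the 27998 genes of the count tables. The animals were wild-type C57Bl/6J mice without treatment. The study made single-cell RNA libraries of embryos at embryonic day (E) 8.5 and E10.5, from which the head and the limbs had been removed, and of hearts at 3 later embryonic stages (E12.5, E14.5 and E16.5) and on the third day after birth (P3). Of the stages E10.5 to E16.5, 2 libraries each were used, and of the 2 records of E8.5 only replicate 2 was analysed here. The 2 records of P3 came as 1 table that joins 2 sets of barcodes, here called wells. No source used here ties a well to a record. The study, judging by eye, reports significant batch differences at P3 alone. The record titles give every record of a stage the same replicate number, and replicates 1 and 2 here are numbered from the sample names. How many animals went into a cell suspension, and whether both libraries of a stage came from one suspension, is not given in the sources used here, so p-values measure only the spread between libraries, which may be technical.

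Lipoprotein lipase (Lpl) releases fatty acids from lipoproteins at the vessel wall. The membrane protein CD36 (Cd36) and the transport protein FATP1 (Slc27a1) promote their entry into cells, and small binding proteins (Fabp3 in muscle, Fabp4 in capillaries and fat) carry them in the cytosol. Long-chain acyl-CoA synthetase (Acsl1) activates them, carnitine palmitoyltransferases (Cpt1a, Cpt1b, Cpt2) and the carnitine carrier (Slc25a20) bring them into the mitochondrion, and the enzymes of beta-oxidation shorten them step by step. The fetal heart is known to rely mainly on glucose and lactate and to turn to fatty acids after birth, with the nuclear receptor PPARα (Ppara) and its coactivator PGC-1α (Ppargc1a) among the regulators of these genes.

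Barcodes with at least 2000 UMIs (unique molecular identifiers, counted transcripts), of which at least 1% were mitochondrial, were kept, 67411 in all. Cardiomyocytes were barcodes with at least 1500 CPM (a gene's UMIs scaled to a total of 1000000) of the troponin gene Tnnt2 in hearts, or 500 in embryos, and they numbered 149 at E8.5, 187 and 198 at E10.5, 1704 to 3539 per library at E12.5 to E16.5 and 6973 at P3. Endothelium was gated on Cdh5 (142 to 864 barcodes a library) and mesenchyme on Col1a1 (59 to 1744). Across the 6 libraries of E12.5 to E16.5, 9 cardiomyocyte markers summed to 26772 to 36068 CPM in cardiomyocytes, 665 to 966 in endothelium and 767 to 1470 in mesenchyme, and 8 endothelial markers summed to 15.6 to 35.6 in cardiomyocytes and 1768 to 2915 in endothelium. These 2 lists include the gate genes Tnnt2 and Cdh5, and barcodes that passed 2 gates were left out. Part of the separation therefore follows from the gates. All levels below are CPM of the summed UMIs of a class in 1 library. Log2 fold changes and counts of genes called come from fits that also scale each sum by TMM, a factor for its composition. The log2 values can therefore differ from ratios of the printed CPM in size and, for small changes, in sign. UMIs count transcript ends, so the levels carry no transcript length. The 2 libraries of a stage differed in the cardiomyocyte level of these genes by a median factor of 1.09 at E10.5, 1.08 at E12.5, 1.04 at E14.5 and 1.02 at E16.5, over the genes with at least 50 UMIs in both. Pairs of libraries shared 14 to 181 barcodes, against 21.9 to 193.1 that equal draws from the barcode list would give. A class sum cannot tell a shift in the mix of cells inside the class from a change within each cell.

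The stretches of genome upstream of these genes are shown for 5 of the genes the results turn on. In cardiomyocytes Hadha, Hadhb, Acadm and Acsl1 rose between E14.5 and E16.5, and Pdk4 rose before E14.5 with no difference that passed after it. RefSeq promoter windows (GRCm38.p6, 250 bases before to 50 bases after the start) were found for 26 of the 31 genes, 29 windows in all. Lpl, Decr1, Acaa2, Fabp4 and Cpt1b had no window. Only bases before the outermost annotated start are printed, 5′ to 3′ on the strand named.
Hadha and Hadhb, shared stretch between their opposite starts, chr5:30155163-30155247, plus strand, capitals mark GC boxes: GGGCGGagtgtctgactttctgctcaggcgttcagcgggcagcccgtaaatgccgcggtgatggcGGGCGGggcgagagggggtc
Acadm, chr3:153944644-153944893, minus strand, capitals mark a nuclear receptor half-site in reverse: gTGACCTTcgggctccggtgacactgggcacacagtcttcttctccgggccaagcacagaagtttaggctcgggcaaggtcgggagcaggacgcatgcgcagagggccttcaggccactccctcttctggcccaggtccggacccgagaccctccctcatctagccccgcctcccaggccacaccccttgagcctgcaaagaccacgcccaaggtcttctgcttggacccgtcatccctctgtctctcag
Acsl1, chr8:46470787-46471036, plus strand, capitals mark GC boxes: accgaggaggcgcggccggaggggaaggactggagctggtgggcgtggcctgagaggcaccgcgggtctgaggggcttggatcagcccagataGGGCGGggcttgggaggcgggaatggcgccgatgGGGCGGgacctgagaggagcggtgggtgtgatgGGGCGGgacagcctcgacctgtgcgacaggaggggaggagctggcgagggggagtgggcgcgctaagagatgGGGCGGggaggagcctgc
Pdk4, chr6:5496310-5496528, minus strand, capitals mark a CCAAT box in reverse: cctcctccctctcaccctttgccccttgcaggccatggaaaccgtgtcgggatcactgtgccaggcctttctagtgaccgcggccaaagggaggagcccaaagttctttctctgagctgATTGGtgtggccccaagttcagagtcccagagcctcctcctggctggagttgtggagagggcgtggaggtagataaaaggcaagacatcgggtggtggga
Hadha and Hadhb encode the α and β subunits of the mitochondrial trifunctional protein and, in the GENCODE annotation, start 86 bases apart in opposite directions. The starts of their RefSeq windows lie farther apart, inside the GENCODE bounds of the genes. The printed stretch, between the GENCODE starts, holds 2 GC boxes (GGGCGG, both strands searched), and the Acsl1 stretch holds 4. GC boxes were found in 19 of the 29 windows, against 35.7% of all 32851 windows of the same length, and CCAAT in 14 of 29, against 37.4%. The median GC content was 60.7% in these windows and 52.7% in all. The half-site AAGGTCA, which nuclear receptors of the ERR and PPAR families are known to bind within longer sites, was in 1 of 29 windows, that of Acadm, against 4.72% of all windows. The longer ERR site TCAAGGTCA, which contains it, the DR1 repeat (a tandem pair of AGGTCA), the MEF2-type box and TATAAA were in none, against 0.423%, 0.0396%, 3.69% and 13.6% of all windows. These are matches of letters in a short window.

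From E12.5 to E16.5 nearly the whole path rose in cardiomyocytes. Of the 31 genes, 30 were higher at E16.5 at an adjusted p under 0.05 (edgeR's quasi-likelihood test, adjusted over 14657 genes) and none was lower, while 29.7% of all genes tested were higher and 29% lower. The median log2 fold change of the 31 genes was 0.85, and that of all genes tested was 0.00. Cpt2, which rebuilds acyl-CoA inside the mitochondrion, was the 1 gene that did not pass (log2 fold change 0.02 ± 0.07 (SE), adjusted p = 0.815). Between E12.5 and E14.5, 22 of the 31 rose and 1 fell (18.7% and 16.2% of all genes tested). Without E14.5 replicate 2, that count was 14 up and 1 down, and with each barcode thinned to 2000 UMIs it was 13 up and 1 down. Between E14.5 and E16.5, 26 rose and none fell (19.9% and 19.8% of all genes). In 20 of the 31 genes both libraries of each stage lay above both libraries of the stage before, against 9.23% of 13647 genes, and 18 of those 20 were higher again at P3. None of the 31 was lower at each step, against 25.3% of all genes. Here and below such step counts compare CPM without the scaling of the fits. In the fits the shares of all genes were near equal, 29.7% higher and 29% lower from E12.5 to E16.5, so the share lower at each step depends on that scale. The median mitochondrial share of UMIs in cardiomyocytes rose over the same stages, from 6.58% and 6.98% at E12.5 to 8.58% and 8.48% at E14.5 and then 10.7% and 11.1% at E16.5, and its part in the result was not tested beyond a fit without mitochondrial genes in the totals, which also called 30 genes higher.

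**Figure D1:**
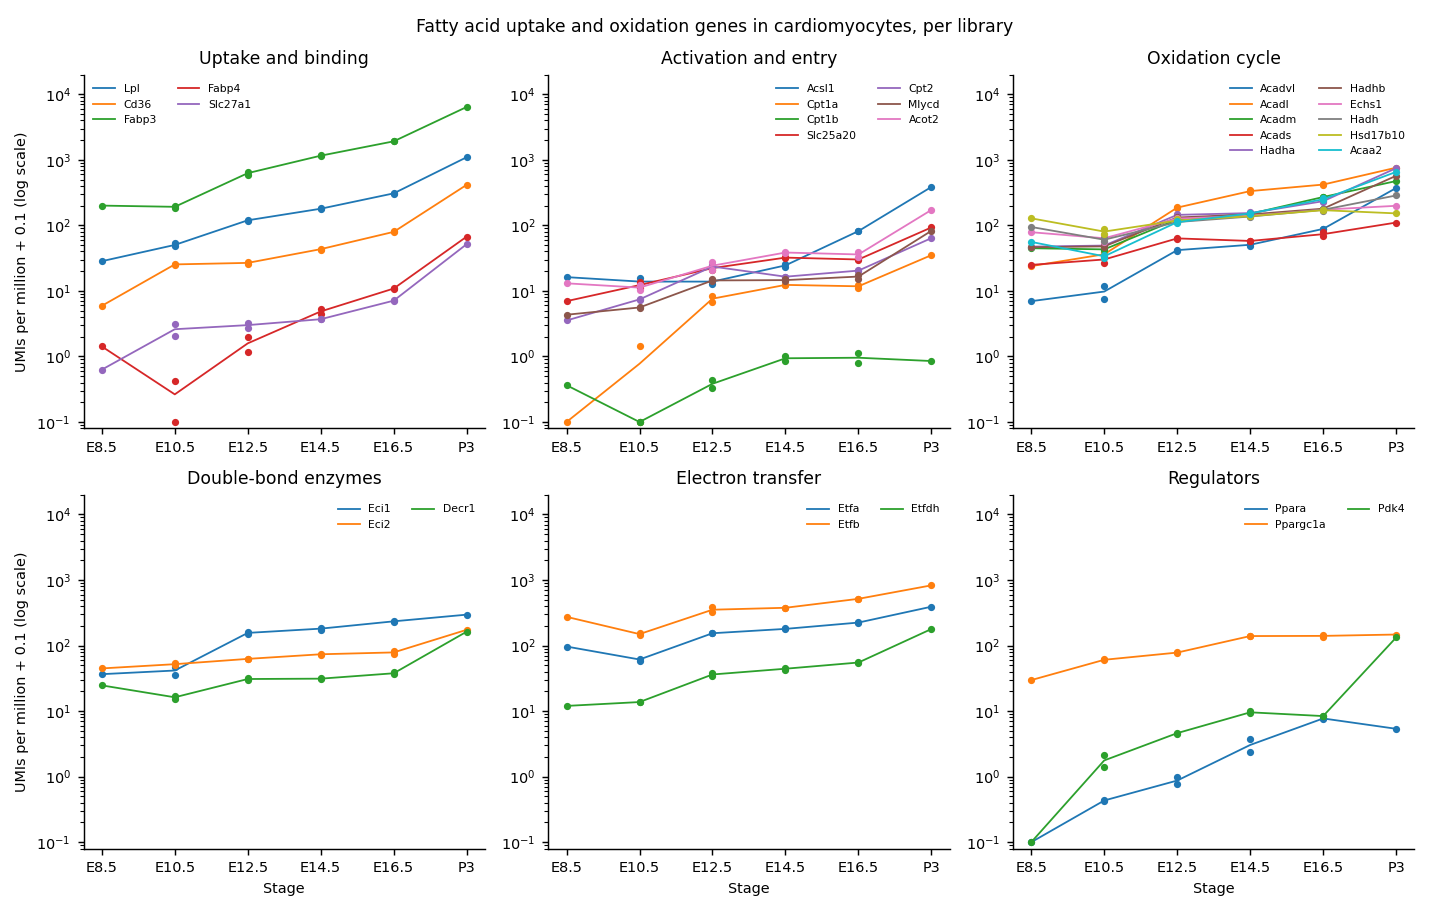
Levels of the 31 genes in cardiomyocytes by stage, in CPM plus 0.1 on a log scale, in 6 panels by role. Points are libraries (1 at E8.5, 2 at E10.5 to E16.5) or the joined table of P3, and lines join stage means. Fabp3 stands at 200.1 at E8.5 and 6401 at P3, and Cpt1b stays near 1 or below.

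Among the uptake and binding genes, all 5 rose from E12.5 to E16.5. Fabp3, the muscle-type fatty acid binding protein, was at 661 and 591 CPM in the E12.5 libraries, then 1144 and 1168 at E14.5 and lastly 1922 and 1906 at E16.5. No 2 stages overlapped, and the log2 fold change from E12.5 to E16.5 was 1.84 ± 0.09 (SE), adjusted p = 3.96e-13. Lpl followed the same order with 116 and 123, then 178 and 181, then 311 and 304 (log2 1.59 ± 0.07 (SE), adjusted p = 2.15e-13). Cd36 went from 25.3 and 28 through 44 and 42.5 to 80.8 and 78.2 (log2 1.80 ± 0.07 (SE), adjusted p = 1.99e-14). Slc27a1 was low throughout, at 2.64 and 3.17 at E12.5 and 6.93 and 7.07 at E16.5 (log2 1.49 ± 0.11 (SE), adjusted p = 5.15e-10). Fabp4 also passed the test, from 1.91 and 1.06 to 10.8 and 10.8 (log2 3.12 ± 0.16 (SE), adjusted p = 1.53e-12), but at E16.5 its cardiomyocyte level was 0.308% and 0.363% of that in endothelium. The levels of 7 endothelial markers in the same cardiomyocytes were 0.182% to 1.26% of their endothelial levels, so the Fabp4 counts in cardiomyocytes at E16.5 lie within background. At E12.5 its share was 3.99% and 6.12%, on 83 and 57 UMIs, above the highest marker there (3.70% and 3.55%).

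Activation and mitochondrial entry were uneven. Acsl1 had the steepest late rise of these 7 genes, with 12.7 and 14.8 at E12.5, then 25.5 and 23.3 at E14.5 and lastly 81.4 and 81.9 at E16.5. Its log2 fold change was 0.85 ± 0.08 in the first interval and 1.94 ± 0.07 in the second, and 2.79 ± 0.08 (SE), adjusted p = 1.68e-16 over both. Cpt1a, the isoform of the outer membrane transferase known to prevail in liver and fetal tissue, rose early and then stayed, with 6.77 and 8.25, then 12.1 and 12.4, then 11.1 and 12.2 (log2 0.72 ± 0.10 between E12.5 and E14.5, 0.13 ± 0.10 (SE), adjusted p = 0.307 between E14.5 and E16.5). Slc25a20 had the same course, with 20.6 and 23.8, then 31.2 and 33, then 29.6 and 30.5. Cpt2 dipped, with 22.4 and 24.5, then 16.4 and 16.3, then 20.7 and 19.9, and both its fall to E14.5 (log2 -0.50 ± 0.07 (SE), adjusted p = 1.91e-05) and its rise from there (log2 0.52 ± 0.07 (SE), adjusted p = 7.72e-06) passed the test. Mlycd, which breaks down malonyl-CoA, the inhibitor of the outer membrane transferase, was at 14.9 and 13.8 at E12.5 and 15.3 and 17.6 at E16.5 (log2 0.42 ± 0.08 (SE), adjusted p = 0.000154). Acot2, a mitochondrial acyl-CoA thioesterase, rose from 21 and 27.3 to 32.6 and 39.2. Reads of Acot2 and of its near-identical neighbour Acot1 may be split between them, so its level is uncertain.

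Cpt1b, the muscle isoform of the outer membrane transferase, was nearly uncounted. The 10 cardiomyocyte sums held between 0 and 82 of its UMIs, or at most 1.02 CPM, P3 included. In the GENCODE annotation Cpt1b lies wholly inside Gm44502, a coding gene on the same strand. Gm44502 is not among the 27998 genes of the tables, and whether reads of Cpt1b were left uncounted was not tested. Its rise from E12.5 to E16.5 passed the test (log2 1.76 ± 0.33 (SE), adjusted p = 0.000138) on 10 and 18 UMIs against 47 and 49. Etfb likewise overlaps a same-strand coding gene, Gm45233, which is among the genes counted, so its level may also be incomplete. Acadvl, Hadha, Echs1, Etfdh and Fabp3 overlap genes on the opposite strand, and reads of such pairs can be told apart only by strand. The study's read summary lists antisense reads as a class of their own.

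All 10 enzymes of the oxidation cycle rose from E12.5 to E16.5. The acyl-CoA dehydrogenases take the first step, each for its own chain length. Acadvl (very long chains) was at 41 and 42.5 at E12.5, then 48.9 and 52 at E14.5 and lastly 88.8 and 87.6 at E16.5, log2 1.30 ± 0.07 (SE), adjusted p = 6.3e-12. Acadl (long chains) had most of its rise in the first interval, with 185 and 188, then 322 and 344, then 407 and 431 (log2 0.86 ± 0.07 and then 0.54 ± 0.07). Acadm (medium chains) had most of its rise in the second, with 121 and 126, then 147 and 153, then 269 and 271 (log2 0.30 ± 0.07 and then 1.06 ± 0.07). Acads (short chains) was at 62.4 and 63.9, then 56.9 and 58.5, then 68.6 and 78, and its difference between E12.5 and E14.5 did not pass (log2 -0.11 ± 0.07 (SE), adjusted p = 0.25). The timing of these rises was not compared between genes.

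The courses of the trifunctional protein subunits Hadha and Hadhb were not compared with each other by a test. Hadha was at 140.4 and 149 at E12.5, then 149 and 158 at E14.5 and lastly 230.5 and 237 at E16.5, and Hadhb at 134 and 129, then 145 and 149, then 180.4 and 179. Neither passed between E12.5 and E14.5 (log2 0.11 ± 0.07 (SE), adjusted p = 0.234, and log2 0.17 ± 0.07 (SE), adjusted p = 0.0591), and both rose between E14.5 and E16.5, by log2 0.81 ± 0.07 and 0.50 ± 0.07. Acaa2, the mitochondrial thiolase, went from 116 and 108 to 244 and 257 (log2 1.39 ± 0.08 (SE), adjusted p = 4.59e-12). Hadh, Echs1 and Hsd17b10, which act on shorter chains or on branched amino acid products, rose by log2 0.85 ± 0.07, 0.68 ± 0.08 and 0.75 ± 0.08. The enzymes for double bonds, Eci1, Eci2 and Decr1, rose by log2 0.81 ± 0.08, 0.55 ± 0.07 and 0.52 ± 0.07. The electron transfer proteins Etfa, Etfb and Etfdh, which hand the electrons of the dehydrogenases to the respiratory chain, rose by log2 0.77 ± 0.07, 0.77 ± 0.09 and 0.83 ± 0.07.

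The regulators rose as well. Ppara was at 0.666 and 0.878 at E12.5, then 2.28 and 3.61 at E14.5 and lastly 7.59 and 7.65 at E16.5, log2 3.51 ± 0.18 (SE), adjusted p = 1.18e-12. Ppargc1a rose early, with 77.5 and 78.5, then 138 and 141, then 145 and 136 (log2 0.86 ± 0.07 and then 0.22 ± 0.07, the second call being lost without either E14.5 library or E16.5 replicate 1). In CPM its E16.5 libraries lay on either side of those of E14.5, so the printed levels show no second rise. Pdk4, a mitochondrial kinase that inhibits the pyruvate dehydrogenase complex and so the making of acetyl-CoA from pyruvate, was at 4.41 and 4.61, then 9.86 and 9.1, then 8.29 and 8.3, with its rise in the first interval (log2 1.10 ± 0.10 (SE), adjusted p = 3.49e-08) and no difference that passed in the second (log2 0.01 ± 0.09 (SE), adjusted p = 0.968).

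Other genes of the same chemistry were followed from lists that were also chosen with earlier results known. Of 17 other genes of mitochondrial oxidation, 14 rose and 1 fell from E12.5 to E16.5, among them Crat, which moves acetyl groups onto carnitine (log2 1.36 ± 0.08), and Ech1, an isomerase of unsaturated chains (log2 1.01 ± 0.07). Of 19 tested genes of uptake, binding and lipid droplets, 14 rose and 3 fell. The lipid droplet coat gene Plin4 rose from 0 and 0.0187 at E12.5 to 2.4 and 2.6 at E16.5, and Plin5 from 0.115 and 0.0373 to 0.737 and 0.728. Of 12 peroxisomal genes 7 rose and 1 fell, of 6 acyl-CoA synthetases 3 rose and 1 fell, and of 22 tested regulators 11 rose and 6 fell. Of all genes tested 29.7% were higher and 29% lower. The median log2 fold changes were 0.39 for the peroxisomal genes, 0.42 for the synthetases and 0.18 for the regulators, against 0.00 for all genes. Among the regulators was Klf15, a transcription factor of lipid use in muscle, which rose by log2 2.42 ± 0.10.

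At P3 the cardiomyocytes held more of most of these transcripts than at E16.5. The 2 wells of its table could not be tied to the 2 records of P3 and were not used as replicates, so no test was made. At least 2-fold above the mean of the E16.5 libraries were 19 of 31 genes, against 6.28% of 13185 genes with at least 10 UMIs in both E16.5 libraries, and the same count was 19 in well 1 and 17 in well 2. The 19 include Fabp4 (ratio 6.24), at 0.572% of the endothelial level at P3, where 7 endothelial markers lay between 0.413% and 0.883%. The median ratio was 3.09 over the 31 genes and 0.933 over all. Mitochondrial genes took a median of 22.1% of cardiomyocyte UMIs at P3, and without them in the totals the median ratio was 3.47. Fabp3 stood at 6401 (exact 95% Poisson interval 6386 to 6416, counting error only), 6629.8 in well 1 and 5812 in well 2. Acsl1 stood at 385, Lpl at 1096, Cd36 at 415, Hadha at 745 and Acadvl at 372. Pdk4 had the highest ratio, 15.99, with 133 at P3, but its wells differed, at 158 and 68.1. Slc27a1 stood at 51.6, a ratio of 7.37, and Mlycd at 82.5, a ratio of 5.01.

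A few genes did not share the postnatal increase. Ppara was at 5.27 at P3, a ratio of 0.691 to E16.5, and Hsd17b10 at 152, a ratio of 0.894. Without mitochondrial genes in the totals these ratios were 0.776 and 1.00. The wells differed, with ratios of 0.604 in well 1 and 0.917 in well 2 for Ppara, and 0.970 and 0.697 for Hsd17b10. Cpt1b, near 1 CPM at both stages, had a ratio of 0.878 (0.802 in well 1, 1.07 in well 2, and 0.986 without mitochondrial genes). Ppargc1a had a ratio of 1.05, with 123 in well 1 and 209 in well 2, on either side of the E16.5 libraries. Echs1 and Eci1 had ratios of 1.15 and 1.26. P3 was also processed apart from the embryonic stages, as a table of barcodes that had already been filtered.

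**Figure D2:**
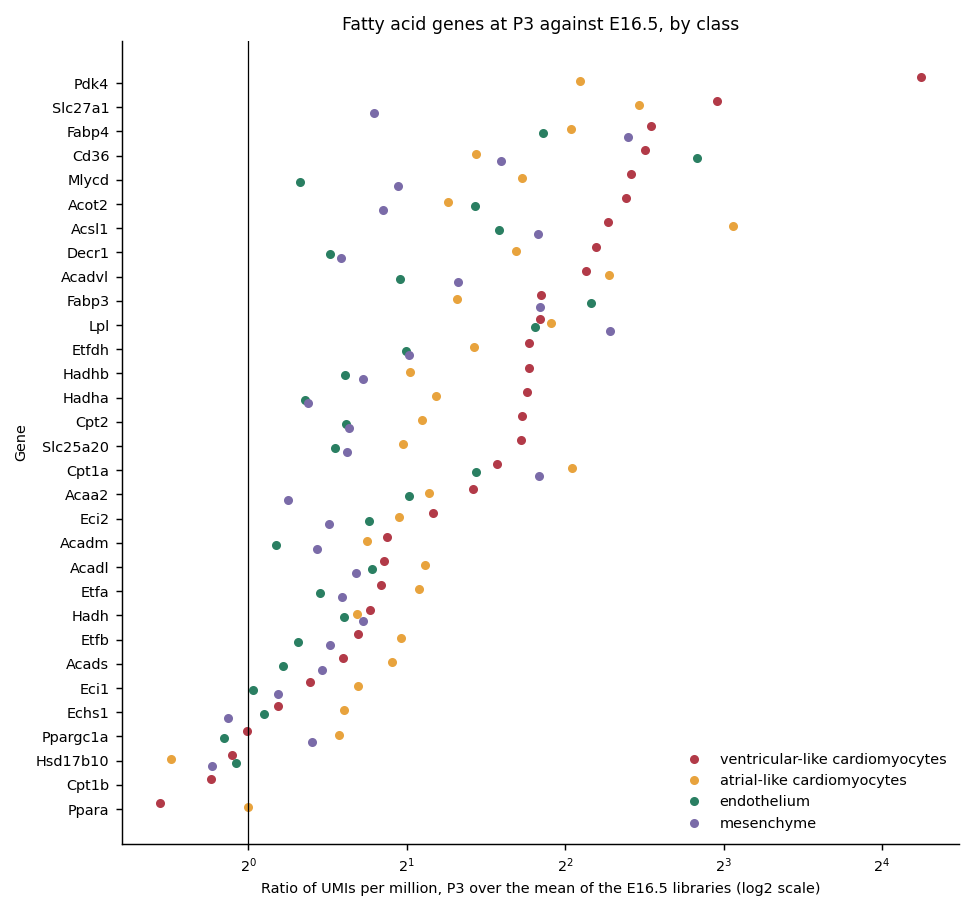
Ratio of the level at P3 to the mean of the 2 E16.5 libraries for each gene (rows, ordered by the ventricular-like ratio) on a log2 axis, by cell class in colour, for genes with at least 10 UMIs in both E16.5 libraries of the class; there is 1 table at P3 and no error bar. Ventricular-like points reach 19.0 for Pdk4, and Ppara, Hsd17b10, Cpt1b and Ppargc1a lie at or below 1 there.

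At E10.5 most of these genes were lower than at E12.5. E12.5 cardiomyocytes were above those of E10.5 in 26 of 31 genes and below in none (23.2% and 20.2% of all genes tested). This comparison sets dissected hearts against embryo bodies, with a different Tnnt2 gate. Fabp3 was at 184 and 199.7 at E10.5 and rose by log2 1.83 ± 0.09 to E12.5, Acadl at 33.8 and 38.4 (log2 2.49 ± 0.10) and Eci1 at 35.8 and 47.2 (log2 2.03 ± 0.12). Acsl1, Cd36, Slc27a1, Ppara and Cpt1b did not pass. Cd36 was at 25.9 and 24.6 at E10.5 against 25.3 and 28 at E12.5 (log2 0.19 ± 0.12 (SE), adjusted p = 0.204). At E8.5, with 149 cardiomyocytes and no replicate, 15 of the 31 genes were below both E10.5 libraries (45.4% of 16331 genes with a UMI) and 13 were above both (28.7%), so these genes did not stand uniformly lower than at E10.5. Etfb was at 274, against 154 and 145 at E10.5, and Hadh at 94.4, against 63.3 and 57.3. Acadl was at 23.8, against 33.8 and 38.4. Fabp3 was at 200.1 there (exact 95% Poisson interval 186 to 215), against 184 and 199.7 in the E10.5 libraries. No UMI of Cpt1a, Ppara or Pdk4 was counted at E8.5, which allows up to 0.975 CPM each at the upper end of the exact 95% interval.

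Atrial and ventricular muscle differed in most of the path. Atrial-like cardiomyocytes were barcodes with Myl7 at 3000 CPM or more and Myl2 below 1000 (137 to 269 a library at E12.5 to E16.5, 1156 at P3), and ventricular-like ones had Myl2 at 3000 or more and Sln below 1000 (1421 to 3072, and 5718 at P3). Over the 3 tested stages 24 of 31 genes were lower in atrial-like cells and 3 were higher (26.8% and 24.3% of 13616 genes), with a median log2 difference of -0.46. The median mitochondrial share of UMIs was higher in atrial-like cells at E12.5 (7.43% and 7.08% against 6.45% and 6.93% in ventricular-like cells), close in both chambers at E14.5 (8.48% and 8.64% atrial-like, 8.49% and 8.34% ventricular-like) and lower in atrial-like cells at E16.5 (8.04% and 8.89% against 10.7% and 11.1%), and with mitochondrial genes left out of the totals 24 genes were again lower and 3 higher. In the fitted mean over the 3 stages all 10 genes of the oxidation cycle and all 3 of electron transfer were lower, though Acaa2 (log2 -0.14 ± 0.05 (SE), adjusted p = 0.0197) lost its call without E14.5 replicate 2 and its direction with no minimum mitochondrial share (log2 0.0026). In CPM the ventricular-like level of Acaa2 was between 0.814 and 1.22 times the atrial-like one in these libraries. At E12.5 several of these genes stood the other way in CPM. Hadha was at 161 and 171 in atrial-like and 138 and 146 in ventricular-like cells there, Hadh at 127 and 126 against 109 and 113, and Acaa2 at 139.7 and 124 against 114 and 107. Lpl was likewise higher in atrial-like cells at E12.5, and Hsd17b10 and Ppargc1a were near equal or higher there, while at E16.5 all of these but Acaa2 were lower in both libraries. Hadhb, unlike Hadha, was lower in atrial-like cells already at E12.5, at 109 and 114 against 139 and 132. Eci1, which shifts double bonds, was at 103 and 105, then 76.2 and 75.8, then 93.5 and 77.7 in atrial-like cells at the 3 stages, and at 171 and 157, then 184 and 197, then 247 and 252 in ventricular-like cells. No atrial-like value reached the lowest ventricular-like one (log2 -1.33 ± 0.05 (SE), adjusted p = 1e-15). Fabp3 was at 777 and 715 in atrial-like and 2038 and 2035 in ventricular-like cells at E16.5 (log2 over the stages -1.22 ± 0.05 (SE), adjusted p = 1e-15). Others among the lower genes were Acadvl (log2 -1.06 ± 0.05), Etfa (-0.96 ± 0.05), Ppara (-0.81 ± 0.27), Echs1 (-0.81 ± 0.05) and Acsl1 (-0.80 ± 0.08). The Ppara value rests on 2 to 30 UMIs in each atrial-like sum, and its call was lost without E12.5 replicate 1, with gates at double the level, with barcodes thinned to 2000 UMIs and with the Sln gate for atrial-like cells. Cpt1b, also with few UMIs, did not pass (log2 -1.22 ± 0.57 (SE), adjusted p = 0.0769).

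The genes higher in atrial-like cells were Fabp4, Cd36 and Pdk4. Cd36 was at 47.7 and 52, then 75.1 and 71.4, then 93.1 and 94.9 in atrial-like cells and at 22.1 and 25.1, then 40.8 and 40.9, then 80.3 and 77.1 in ventricular-like cells (log2 0.57 ± 0.05 (SE), adjusted p = 9.94e-10). Pdk4 was at 16.2 and 14.8 against 7.63 and 7.72 at E16.5 (log2 over the stages 0.57 ± 0.10 (SE), adjusted p = 3.75e-05). Fabp4 was at 30.7 and 47.7 against 9.09 and 7.4 at E16.5 (log2 2.09 ± 0.19 (SE), adjusted p = 1.99e-09). With it moved 7 endothelial markers, which summed to 34.0 to 62.5 CPM in atrial-like and 12.8 to 30.3 in ventricular-like cells of the 6 libraries, and their part in the Fabp4 difference was not tested. As a share of endothelium, atrial-like Fabp4 was at 14.3% and 24.2% at E12.5, where the highest marker was at 11.5% and 10.6%. At E16.5 it was at 0.875% and 1.61%, against 2.98% and 4.13% for the highest marker. At P3, Cd36 and Pdk4 stood the other way, with Cd36 at 254 in atrial-like and 448 in ventricular-like cells and Pdk4 at 66.1 and 146. Among the genes that did not pass were Eci2 and Slc25a20 (log2 -0.01 ± 0.05 (SE), adjusted p = 0.876 and -0.02 ± 0.06 (SE), adjusted p = 0.785). In CPM the ventricular-like level of Eci2 was between 0.833 and 0.982 times the atrial-like one in the libraries of E12.5 to E16.5.

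From E12.5 to E16.5 part of the path rose less in atrial-like than in ventricular-like cells. The change over that interval was smaller in atrial-like cells for 13 of 31 genes and larger for none (5.21% and 7.24% of all genes tested). The mitochondrial share moved with this difference, since it stood higher at E16.5 than at E12.5 by more in ventricular-like than in atrial-like cells, and its part was not tested beyond the fit without mitochondrial genes in the totals, which also called 13 genes. The libraries hold both chambers of the same suspension, and with library as a block 19 genes had a smaller atrial-like change, while with each barcode thinned to 2000 UMIs 4 had. For Cd36, 1 of the 13 (log2 -0.82 ± 0.11 (SE), adjusted p = 1.98e-05), the chambers came closer, since it started higher in atrial-like cells, with a ventricular-like level 0.463 and 0.483 times the atrial-like one at E12.5 and 0.863 and 0.813 times at E16.5. Rising at each step without overlap were 9 genes in atrial-like (3.9% of all genes) and 19 in ventricular-like cells (9.96%), and none was lower at each step in either (9.56% and 24.4% of all genes). Acsl1 was at 11.9 and 16.8 in atrial-like and 12.8 and 14.6 in ventricular-like cells at E12.5, where the chambers overlap, and at 25.2 and 24.9 against 86.9 and 87.5 at E16.5, a difference in change of log2 -1.87 ± 0.19 (SE), adjusted p = 1.87e-07. Acadm went from 114 and 113 to 142 and 141 in atrial-like and from 122 and 128 to 283 and 286 in ventricular-like cells (log2 -0.87 ± 0.10 (SE), adjusted p = 2.44e-06). Hadh stayed near its atrial-like level, 127 and 126 at E12.5 and 124 and 121 at E16.5, while the ventricular-like level went from 109 and 113 to 173 and 184 (log2 -0.74 ± 0.10 (SE), adjusted p = 2.39e-05). At P3 the ventricular-like level of Acsl1 was 2.02 times the atrial-like one, against 3.44 and 3.51 times in the E16.5 libraries, and that of Fabp3 was 3.94 times, against 2.62 and 2.85.

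**Figure D3:**
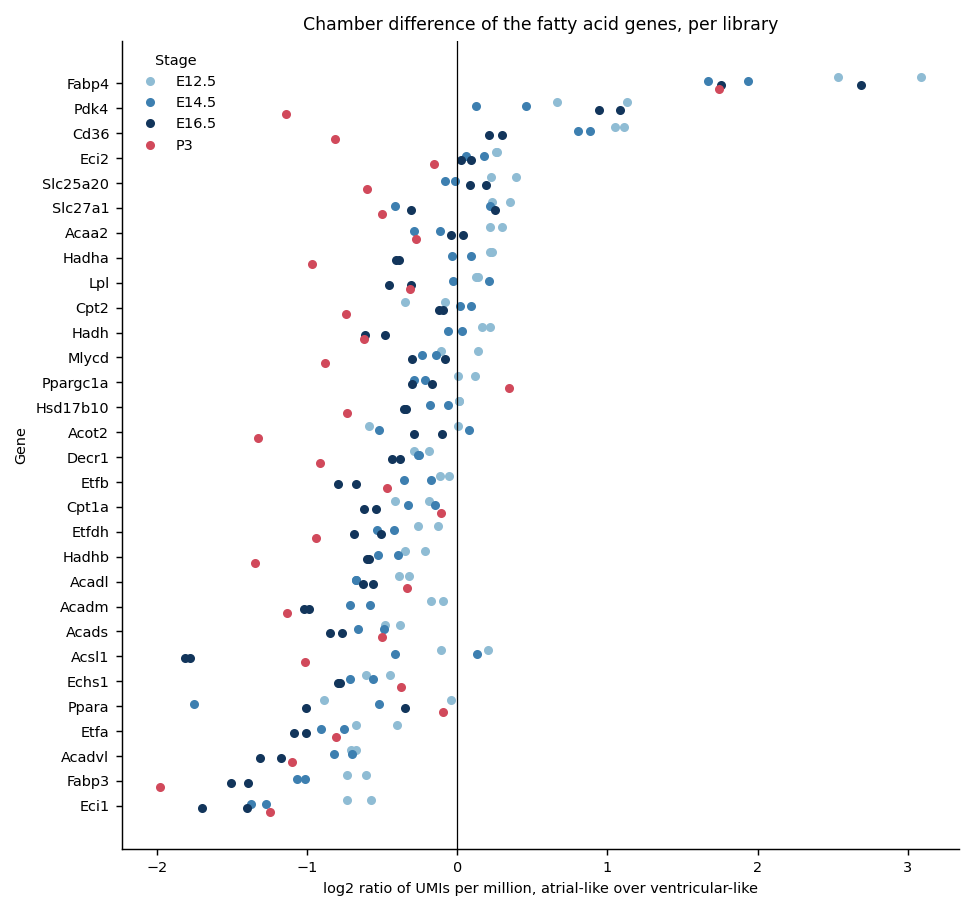
Log2 ratio of the atrial-like to the ventricular-like level for each gene (rows, ordered by the tested difference, Cpt1b left out for its low counts), with 1 point per library or for the joined table of P3, and stages in colour. Most points lie left of 0, the E16.5 points of Acsl1 lie well left of its E12.5 points, and the P3 points of Cd36 and Pdk4 lie left of 0 while those of the embryonic stages lie right.

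Most of these genes had higher levels in muscle than in the other cell classes. Over E12.5 to E16.5, cardiomyocytes were above endothelium in 28 of 31 genes and below in 1 (42.8% and 38.8% of 14286 genes), and above mesenchyme in 28 and below in 2 (42.4% and 40.8%). The exceptions against endothelium were Fabp4 (log2 -6.82 ± 0.18 (SE), adjusted p = 4.42e-20) and, without passing, Eci2 (0.04 ± 0.04 (SE), adjusted p = 0.345) and Cpt1a (0.13 ± 0.08 (SE), adjusted p = 0.133). These are means over the stages. The endothelial level of Eci2 was 149% and 148% of the cardiomyocyte level at E12.5 and 87.8% and 81.5% at E16.5, and that of Cpt1a was 107% to 132% at E12.5 and E14.5 and 62.3% and 79.7% at E16.5. Cd36, counted among the higher genes, was higher in cardiomyocytes at E12.5 only, and its endothelial level as a share of the cardiomyocyte level was 120% and 124% in the E14.5 libraries, then 268% and 271% in those of E16.5, with 367% for P3. Hsd17b10 was lower in cardiomyocytes than in endothelium and in mesenchyme at E12.5, and Decr1 lower than in mesenchyme. Against mesenchyme, Slc27a1 and Eci2 were lower in cardiomyocytes (log2 -0.42 ± 0.10 and -0.20 ± 0.04), but the order turned with stage. The mesenchymal level of Slc27a1 was 226% to 301% of the cardiomyocyte level at E12.5 and E14.5, then 70.0% and 59.8% in the E16.5 libraries, with 15.2% for P3, and that of Eci2 went from 164% and 170% at E12.5 to 106% and 103% at E16.5 and 67.1% at P3. Ppargc1a was at 138 and 141 in cardiomyocytes, 2.04 and 4.46 in endothelium and 11.6 and 13.1 in mesenchyme at E14.5 (log2 against endothelium 5.52 ± 0.09 (SE), adjusted p = 5.89e-24), and its endothelial level lay within the range of the sarcomere genes there, that is, within background. Ppara summed to at most 0.294 in any endothelial library of the hearts tested. Acadm was at 269 and 271 in cardiomyocytes, 37.5 and 40.6 in endothelium and 39.2 and 37.2 in mesenchyme at E16.5. Endothelium was above mesenchyme in 7 genes and below in 18 (35.2% and 33.6% of all genes), with Cd36 higher by log2 2.85 ± 0.10 and Decr1 lower (log2 -0.90 ± 0.07).

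In endothelium Fabp4, Cd36 and Lpl rose, while more of the 31 genes fell than rose. From E12.5 to E16.5, 5 of 31 genes rose and 11 fell (19.7% and 20.2% of all genes tested). With each barcode thinned to 2000 UMIs, 4 rose and 4 fell. Without overlap at each step, 6 genes were higher in endothelium and 3 were lower (11.7% and 8.03% of all genes). The 5 that passed upward were Fabp4, Cd36, Lpl, Fabp3 and Acsl1, and the 11 that fell included 5 of the 10 oxidation cycle genes, all 3 double-bond enzymes, Slc25a20, Etfa and Etfb. The calls of Slc25a20 (without E12.5 replicate 2 or E16.5 replicate 1) and Etfa (without E16.5 replicate 2) were lost, and with barcodes thinned to 2000 UMIs Decr1, Echs1 and Acsl1 turned direction (log2 0.082, 0.23 and -0.40). Cd36 was at 2.72 and 3.03 at E12.5, then 53 and 52.5 at E14.5 and lastly 216 and 212 at E16.5 (log2 6.12 ± 0.12 (SE), adjusted p = 4.26e-20), and stood at 1524 at P3. Fabp4 was at 47.7 and 17.4, then 1465 and 1265, then 3508 and 2959.7 (log2 6.57 ± 0.30 (SE), adjusted p = 7.82e-14) and at 11766 at P3, and its E12.5 libraries differed by a factor of 2.75. Over the same stages the share of vascular-like barcodes in endothelium grew, and inside that class Fabp4 went from 563 and 236 at E12.5 to 6444 and 5508 at E16.5 and Cd36 from 9.03 and 4.19 to 398 and 384. The E12.5 levels of Cd36 in that class rest on 9 and 4 UMIs. Lpl went from 18.6 and 21.1 to 65.7 and 73.6 (log2 1.72 ± 0.11 (SE), adjusted p = 2.52e-11). The fifth uptake gene, Slc27a1, did not pass, with 0.862 and 1.63 at E12.5 and 0.735 and 0.846 at E16.5 (log2 -0.78 ± 0.50 (SE), adjusted p = 0.234). Among the oxidation genes, Hadh fell from 69.2 and 69 to 42.9 and 41 (log2 -0.80 ± 0.09 (SE), adjusted p = 1.68e-07) and Acadl from 74.7 and 71.9 to 51.5 and 51.8 (log2 -0.59 ± 0.08 (SE), adjusted p = 5.54e-06).

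The endothelial rise of Fabp3, from 18.8 and 22.3 to 48.1 and 41.2 (log2 1.04 ± 0.11 (SE), adjusted p = 1.04e-07), has to be read against free RNA from muscle. Its endothelial level was 2.16% to 3.78% of the cardiomyocyte level in the 6 libraries, and 8 sarcomere genes lay between 0.662% and 8.90% there, so the endothelial Fabp3 counts cannot be told from free RNA. Acsl1 in endothelium went from 3.65 and 4.54 to 6.91 and 6.56, and its call was lost without E12.5 replicate 1, without E16.5 replicate 1 and without E16.5 replicate 2.

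The change from E12.5 to E16.5 differed between cardiomyocytes and endothelium in 25 of 31 genes, with 23 changing more upward in cardiomyocytes and 2 in endothelium (15.6% and 16.4% of all genes tested). With each barcode thinned to 2000 UMIs the counts were 12 and 2. The 2 were Cd36 (log2 difference in change -4.34 ± 0.15 (SE), adjusted p = 3.2e-15) and Fabp4 (-3.47 ± 0.48 (SE), adjusted p = 6.1e-06). At E12.5 the Cd36 level was higher in cardiomyocytes (25.3 and 28 against 2.72 and 3.03), at E14.5 the classes lay close (44 and 42.5 against 53 and 52.5), and at E16.5 endothelium was higher (216 and 212 against 80.8 and 78.2). Among the genes that changed more upward in cardiomyocytes were Acsl1 (log2 2.15 ± 0.24), Acadl (1.97 ± 0.11), Acaa2 (1.94 ± 0.14) and Hadh (1.63 ± 0.11).

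**Figure D4:**
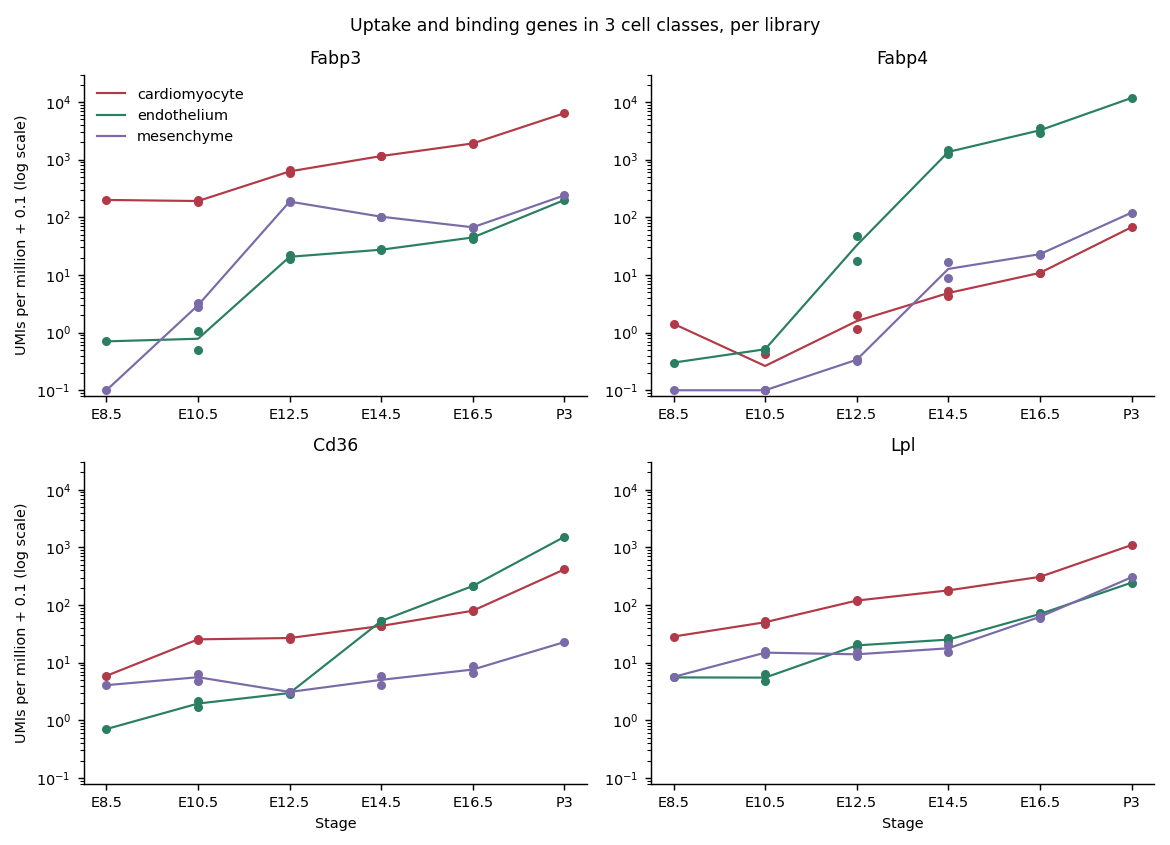
Levels of Fabp3, Fabp4, Cd36 and Lpl by stage in cardiomyocytes, endothelium and mesenchyme, in CPM plus 0.1 on a log scale. Points are libraries or the joined table of P3, and lines join stage means. The Cd36 lines of endothelium and cardiomyocytes cross between E12.5 and E16.5, and Fabp3 in mesenchyme falls from 189 and 186 at E12.5 to 68.7 and 65.5 at E16.5.

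Within endothelium at E12.5 to E16.5, Fabp4 and Cd36 were higher in the vascular-like barcodes (no Npr3 UMI, at least 2 UMIs of Cldn5 and Aplnr together) than in the endocardial-like ones (at least 2 UMIs of Npr3). Of 27 genes that passed the filter on low counts, 3 were higher in vascular-like and 7 in endocardial-like endothelium (26.5% and 26.5% of 10659 genes), and with each barcode thinned to 2000 UMIs 2 and 2 of 16 were. Fabp4 was at 3311 and 2549.8 in vascular-like and 61.6 and 184 in endocardial-like barcodes at E14.5, and at 6444 and 5508 against 124 and 78.4 at E16.5 (log2 over the stages 6.07 ± 0.26 (SE), adjusted p = 5.14e-14). With each barcode thinned to 2000 UMIs, 92.5% and 95.1% of vascular-like barcodes at E16.5 held a Fabp4 UMI, against 7.43% and 8.03% of endocardial-like ones. Without thinning the shares were 96.9% and 95.9% against 20.6% and 20.4%, at median depths of 16384 and 14900.5 UMIs against 12117 and 10783. Cd36 was at 398 and 384 against 18.5 and 17.7 at E16.5 (log2 3.33 ± 0.24 (SE), adjusted p = 2.1e-10). Lpl was higher in endocardial-like barcodes over the stages (log2 -0.50 ± 0.14 (SE), adjusted p = 0.00413), with 21.1 and 23.9 against 8.03 and 14.7 at E12.5, but at E16.5 the classes stood the other way, at 48.4 and 69.2 in endocardial-like and 77.5 and 79 in vascular-like barcodes. The vascular-like levels of Lpl at E12.5 rest on 8 and 14 UMIs. The thiolase Acaa2 (log2 -0.84 ± 0.12), Hadh (-0.48 ± 0.08) and Eci2 (-0.46 ± 0.09) were also higher in endocardial-like barcodes. At E12.5, 34 of 714 and 40 of 864 endothelial barcodes were vascular-like, against 159 of 388 and 122 of 328 in the E16.5 libraries, and the part of this shift in the endothelial totals was not tested. Inside the vascular-like class the Cd36 libraries also lay higher at each later stage, from 109.99 and 97.8 at E14.5 to 398 and 384 at E16.5, with 1969.6 for P3. The endocardial-like barcodes of P3 held more of both transcripts than at E16.5, with Fabp4 at 1629 and Cd36 at 242, ratios of 16.1 and 13.4 to E16.5. These were 20.1 and 16.3 in well 1 but 5.43 and 5.55 in well 2, and the ratios in vascular-like barcodes were 2.55 and 5.04.

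Mesenchyme had no common course. From E12.5 to E16.5, 7 of 31 genes rose and 9 fell (22% and 19.5% of all genes tested), and without E16.5 replicate 2 the counts were 5 and 4, and with each barcode thinned to 2000 UMIs 4 and 2. At each step without overlap, 5 genes were higher in mesenchyme and 5 were lower (7.92% and 15.5% of all genes). Among the 7 that rose, Fabp4 went from 0.249 and 0.228 to 23.4 and 22.3 (log2 6.71 ± 0.64 (SE), adjusted p = 1.53e-08) and Cd36 from 2.99 and 3.02 to 8.58 and 6.41 (log2 1.51 ± 0.19 (SE), adjusted p = 8.75e-07). At E16.5 these were 0.667% and 0.754% of the endothelial level for Fabp4 and 3.97% and 3.03% for Cd36, while 7 endothelial markers lay between 0.236% and 3.95% in mesenchyme, so the Fabp4 counts there cannot be told from free RNA and those of Cd36 lay near the top of the marker range. Fabp3 fell, from 189 and 186 at E12.5 through 102 and 103 at E14.5 to 68.7 and 65.5 at E16.5 (log2 -1.33 ± 0.09 (SE), adjusted p = 8.53e-11), and stood at 241 at P3. At E12.5 its mesenchymal level was 28.6% and 31.4% of that in cardiomyocytes, above the 13.9% and 14.2% that the highest of 8 sarcomere genes reached there, and at E16.5 it was 3.57% and 3.43%, against 2.93% and 2.73%. Lpl rose from 12.7 and 15 to 64.5 and 59.8 (log2 2.31 ± 0.11 (SE), adjusted p = 1.28e-13) and stood at 302 at P3, with its E12.5 level within the sarcomere range, and Acaa2 rose from 50.7 and 40.3 to 103 and 100.01 (log2 1.32 ± 0.10 (SE), adjusted p = 1.63e-10).

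Fewer genes were at least 2-fold higher at P3 outside muscle. At least 2-fold above E16.5 at P3 were 8 of 27 genes in endothelium (6.49% of all genes), 8 of 28 in mesenchyme (7.8%), 19 of 30 in atrial-like (4.41%) and 19 of 31 in ventricular-like cardiomyocytes (5.49%). The median ratios were 1.53, 1.58, 2.19 and 3.29. Inside endothelium the counts were 9 of 26 in vascular-like (7%) and 5 of 24 in endocardial-like barcodes (5.29%). Genes with fewer than 10 UMIs in an E16.5 library of the class were left out. In endothelium these were Pdk4, Slc27a1, Ppara and Cpt1b. There Pdk4 and Slc27a1 were each at 0.735 and 0.846 at E16.5, and at 6.86 and 3.56 at P3. Ppara was at 0.294 and 0 and then 0.125, and Cpt1b at 0 and 0 and then 0.0624. The endothelial count includes Fabp3 (ratio 4.47), whose share of the cardiomyocyte level at P3 lay within that of the sarcomere genes, and the mesenchymal count includes Fabp4 (ratio 5.27) and Cd36 (ratio 3.02), at 1.02% and 1.49% of the endothelial level at P3, where the 7 endothelial markers lay between 0.531% and 5.26%. The mesenchymal count also includes Fabp3 (ratio 3.59), at 3.76% of the cardiomyocyte level at P3, where the highest sarcomere gene was at 3.69%. Both muscle counts include Fabp4, with ratios of 4.10 in atrial-like and 5.82 in ventricular-like cardiomyocytes. Its P3 levels there were 1.36% and 0.408% of the endothelial one. The 7 endothelial markers lay between 0.451% and 1.51% in atrial-like and between 0.373% and 0.850% in ventricular-like cells. With 1 table at P3, the difference between classes was not tested.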

How the data were processed

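The values are raw counts of UMIs, which the authors made with Cell Ranger and deposited without normalization (version 2.1.1 in the submitters' processing notes, 3.1.0 or 3.0.0 in the file headers) on mm10. The labels name trypsin and the 10x v2 kit, the methods collagenase II and v3. Of 13 sample records, 10 tables were analysed here. E8.5 replicate 1 was not analysed here, and the 2 records of E16.5 replicate 1 share a table, as do the 2 of P3. Barcodes inside 2 or more of the gates Tnnt2, Cdh5 (100 CPM and 2 UMIs) and Col1a1 (200 CPM and 2 UMIs) were left out, which stands in for a doublet caller. Gate levels other than Tnnt2 were set from the gate genes and the lists of cell type markers, after these were seen. The same lists gave the marker sums and, without Tnnt2 and Cdh5, the sarcomere and endothelial ranges used as background. Counts were summed per library and class (954589 to 67819146 UMIs) and fitted in 4 models with edgeR 4.0.16 (glmQLFit, TMM, filterByExpr, Benjamini-Hochberg over all genes, threshold 0.05; R 4.3.3), first tested on simulated counts, in which the share of false calls exceeded the threshold in the fit of cardiomyocyte stages. SE is the log2 fold change divided by the square root of F. E8.5 and P3 entered no test. Alternatives were DESeq2 1.42.0, RLE scaling, other filters, gates and mitochondrial limits, thinning, blocks and leaving out each library. The genes, lists and gates were chosen with earlier results of these data known. All 31 genes could be named, and from each other list the 5 largest changes that passed. Classes of one library come from one suspension, and their deviations from the stage means correlated at -0.02 to 0.18. The same replicate numbers at different stages mark no shared source and correlated at -0.00 to 0.07. Sequences are from RefSeq, annotation from GENCODE. Intervals are exact at 95% and cover counting error only. One gene of the other lists is not reported here.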

Additional observations from a re-analysis of the deposited data

Results flagged for a closer look

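The genes below are listed because their change from E12.5 to E16.5 differed between classes by a test of the difference itself. Between the chambers (atrial-like minus ventricular-like, log2), these were Acsl1 (-1.87), Eci1 (-0.88), Acadm (-0.87), Cd36 (-0.82), Fabp3 (-0.77), Hadh (-0.74), Etfb (-0.64), Hadha (-0.62), Acadvl (-0.56), Lpl (-0.51), Etfa (-0.51), Etfdh (-0.41) and Acads (-0.38). For Acads and Etfdh the call was lost without either E16.5 library, for Acads also without E12.5 replicate 2 and for Etfdh also without E12.5 replicate 1. Etfa lost it without E16.5 replicate 2 and Acadvl without E16.5 replicate 1.

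Between cardiomyocytes and endothelium (cardiomyocytes minus endothelium, log2), the oxidation cycle genes were Acadl (1.97), Acaa2 (1.94), Hadh (1.63), Hsd17b10 (1.34), Acadm (1.21), Echs1 (1.13), Acadvl (1.00), Hadha (0.84), Hadhb (0.82) and Acads (0.60). The double-bond and electron transfer genes were Eci1 (1.32), Eci2 (1.10), Decr1 (1.06), Etfb (1.62), Etfa (1.07) and Etfdh (0.72). The others were Slc27a1 (2.26), Acsl1 (2.15), Slc25a20 (1.08), Cpt1a (1.02), Acot2 (1.02), Ppargc1a (0.93), Fabp3 (0.78), Fabp4 (-3.47) and Cd36 (-4.34). The endothelial side of Slc27a1 rests on 13 and 29 UMIs at E12.5 and 5 and 4 at E16.5. In all 6 libraries the endothelial shares of Fabp3 and Ppargc1a lay no higher than the highest of the sarcomere genes, so their endothelial counts cannot be told from free RNA. For Ppargc1a the call was lost without E12.5 replicate 2 or either E16.5 library, and for Acot2 without E12.5 replicate 2 or E16.5 replicate 1.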

How the results depend on the processing

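Each count of genes called was computed under 25 other settings, where they applied. Of 296 such values, 288 stayed within 1.5 times the count reported. With every barcode thinned to 2000 UMIs, fewer genes were called from E12.5 to E14.5 in cardiomyocytes (14), between the chambers' changes (4), from E12.5 to E16.5 in endothelium (8) and mesenchyme (6), between the changes of cardiomyocytes and endothelium (14) and between vascular-like and endocardial-like endothelium (4), with fewer UMIs in each sum. Leaving out 1 library at a time gave 15 to 25 genes for cardiomyocytes from E12.5 to E14.5, the lowest without E14.5 replicate 2, and 9 to 15 for mesenchyme from E12.5 to E16.5, the lowest without E16.5 replicate 2. A group left with 1 library is assumed to vary like the others. For single genes, 8108 of 8377 values kept their call, and 5 turned direction. Direction was compared only where the gene passed in the reported fit, in the alternative or in both. Acaa2 in atrial-like against ventricular-like cells was at log2 0.0026 with no minimum mitochondrial share. In endothelium from E12.5 to E16.5, Decr1 was at 0.082, Echs1 at 0.23 and Acsl1 at -0.40 when thinned. The difference in change of Fabp3 between cardiomyocytes and endothelium was at -0.053 with gates at double the level. The cause was not tested.

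With library as a replicate block, 19 genes differed in change between the chambers in place of 13, the 6 added being Acadl, Acaa2, Echs1, Hadhb, Hsd17b10 and Ppargc1a, and no other class comparison changed a call. With the replicate number as a block, Hadhb passed from E12.5 to E14.5 in cardiomyocytes (adjusted p = 0.0433), and no other stage comparison changed a call of these genes. The 2 gates with Sln for atrial-like cells and with Myl7 for embryo cardiomyocytes were chosen after seeing the data. At these depths, changes of genes near 1 CPM or below, such as Cpt1b, rest on few UMIs, and levels outside muscle below the share of sarcomere genes cannot be told from free RNA.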

Other observations

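Of the genes that use ketone bodies, Oxct1 went in cardiomyocytes from 249 and 253 CPM at E16.5 to 120.1 at P3 and Bdh1 from 3.07 and 3.45 to 0.605. Lipid droplet coat genes were higher at P3, with Plin4 at 24.7 against 2.4 and 2.6 at E16.5 and Plin5 at 27.7 against 0.737 and 0.728, and Acot1, which may share reads with Acot2, stood at 133 against 17.3 and 18.8. These values come from 1 table at P3 and were not tested, and they were picked out after their values were seen.

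In endothelium, Gpihbp1, which holds lipoprotein lipase at the capillary surface, rose from E12.5 to E16.5 by log2 5.86 ± 0.12 (SE), adjusted p = 6.42e-20, and Mgll, a monoacylglycerol lipase, by log2 6.03 ± 0.20 (SE), adjusted p = 2.61e-16. Gpihbp1 was at 6.36 and 4.43 at E12.5, then 69.7 and 78.8 at E14.5 and lastly 338 and 320.2 at E16.5, the same order as Fabp4 and Cd36. Pparg rose by log2 2.31 ± 0.28 (SE), adjusted p = 8.65e-07, from 1.66 and 2.13 to 10.3 and 9.73, while its level in cardiomyocytes was at most 0.264 in any library. The share of vascular-like barcodes in endothelium grew over the same stages, and its part in these 3 rises was not tested.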
